A study of Mus musculus with 2 samples.

Results

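The cytosolic ribosomal protein genes were taken as every gene symbol made of Rpl or Rps and a number, together with Rplp0, Rplp1, Rplp2 and Rpsa, leaving out the Rps6k kinases and symbols marked as pseudogenes. This gave 86 of the 30052 genes in the joined matrices, 52 named for the large subunit and 34 for the small subunit, and all 86 were listed in both libraries. The set holds paralogues such as Rpl10l and Rpl39l, and 2 genes that carry the name without encoding a ribosomal protein, Rps19bp1 (a protein that binds Rps19) and Rpl7l1 (a factor in the assembly of the large subunit). Fau, which encodes a ribosomal protein fused to a ubiquitin-like protein, and Rack1, a scaffold on the small subunit, fall outside the naming rule and were measured beside the set.

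Ribosomes are built from ribosomal RNA and one copy of most ribosomal proteins, so most cell types make the mRNAs of these genes together and at high levels. Many of these mRNAs begin with a run of pyrimidines (a terminal oligopyrimidine, or TOP, start), through which growth signals control their translation. In male meiosis the X chromosome is silenced, and several X-linked ribosomal protein genes have an autosomal copy that is used in the testis. Rpl10l, a copy of Rpl10, is required for mouse spermatogenesis, and Rpl39l, a copy of Rpl39, is part of ribosomes of mouse spermatids and contributes to sperm formation.

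The cells came from 1 testis library of adult Nsun7 knockout (KO) mice and 1 of adult wild-type (WT) mice, and were counted by single-cell RNA sequencing of polyadenylated RNA. Nsun7 encodes a member of a family of RNA methyltransferase-like proteins, and the series concerns its part in building the sperm tail. The labels do not give the deleted part of Nsun7, the age of the mice in weeks or months, their strain, or how many mice went into a library. With 1 library per genotype, differences between genotypes are unreplicated and were not tested, and the 95% intervals given below include nothing but counting error.

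The KO matrix held 16837 barcodes with 210531446 counts and the WT matrix 16376 barcodes with 220247156 counts. After filtering, 13869 KO and 15139 WT cells remained, and the median cell held 12020 UMIs in KO and 8723 in WT (unique molecular identifiers, each taken as 1 captured mRNA). The matrices shared 2168 barcode names, which are running cell numbers. Nsun7 was at 52.6 CPM (UMIs of the gene per 1e+06 UMIs of the class) in KO late spermatocytes and 227 CPM in WT late spermatocytes, so the KO library was lower for the targeted gene without being empty of it. Cells were clustered without the ribosomal protein genes and without Nsun7, and a cluster took a class name from marker genes, so each name below means cells like that type. The class named Sertoli cells rested mostly on cluster 11, a group of low-count barcodes (489 KO cells at a median of 2041 UMIs and 585 WT cells at a median of 1845 UMIs). That cluster carried 13052 CPM of the spermatid gene Tnp1, so its values are given with this limit. The limit is not particular to the Sertoli class: Tnp1 was at 22618 CPM in macrophage cluster 25 and 16880 CPM in stroma cluster 22.

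The coding sequences of Rpl39l and Rpl39 are printed because the parent was nearly absent beside its paralogue in late spermatocytes, and because they show how different the copies are. Each holds 153 bases without the stop codon, and 23 bases differ, which leaves 85.0% identity. Both come from the GENCODE M21 transcripts of GRCm38 in the sense direction, and the capitals mark the bases at which they differ. Rpl39l lies on the plus strand at chr16:10170226-10174911 and Rpl39 on the minus strand at chrX:37082520-37085402.
Rpl39l: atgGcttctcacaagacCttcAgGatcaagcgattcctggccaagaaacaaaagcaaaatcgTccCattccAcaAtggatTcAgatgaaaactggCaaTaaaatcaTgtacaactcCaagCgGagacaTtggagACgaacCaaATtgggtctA
Rpl39: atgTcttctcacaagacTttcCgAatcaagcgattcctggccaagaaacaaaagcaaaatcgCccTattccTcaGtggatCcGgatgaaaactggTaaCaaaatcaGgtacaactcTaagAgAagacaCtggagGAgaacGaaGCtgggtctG
The same count gave 98 differing bases of 642 for Rpl10l and Rpl10 (84.7% identity) and 39 of 318 for Rpl36al and Rpl36a (87.7%). Rpl10l lies at chr12:66283379-66284401 and Rpl36al at chr12:69182731-69184083, both on the minus strand, whereas Rpl10 lies at chrX:74270812-74273135 and Rpl36a at chrX:134585654-134588062, both on the plus strand. The fourth X-linked gene of the set, Rps4x, lies at chrX:102184941-102189394 on the minus strand. Most of the set has closer relatives than these pairs: 76 of the 86 genes had at least 1 other annotated gene with 95% or more identity over 80% or more of the coding sequence, with a median of 4.5 such genes. How the authors' counting treated reads that fit several copies is not stated in any source used here.

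The windows around the transcription starts are printed for the Rpl39 and Rpl10 pairs because these genes moved in opposite directions along the germ cell classes. Each window runs from 30 bases before to 20 bases after the RefSeq start in GRCm38.p6, and the capitals mark the longest run of pyrimidines that begins with C within 10 bases of the start.
Rpl39l: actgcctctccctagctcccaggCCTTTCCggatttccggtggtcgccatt
Rpl39: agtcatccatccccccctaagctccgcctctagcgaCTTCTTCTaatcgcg
Rpl10l: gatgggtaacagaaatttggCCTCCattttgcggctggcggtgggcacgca
Rpl10: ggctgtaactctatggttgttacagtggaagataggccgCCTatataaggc
These stretches are chr16:10170198-10170248 on the plus strand, chrX:37085202-37085252 on the minus strand, chr12:66284381-66284431 on the minus strand and chrX:74270786-74270836 on the plus strand. A RefSeq promoter was found for 66 of the 86 genes. A run of 5 or more C or T that starts with C near the start was present in 40 of these 66 (60.6%), against 34.4% of the 27025 genes in the promoter table. In the wider window of 250 bases before to 50 after the start, on either strand, CCGGAA (the core bound by ETS factors) was present in 54.5% of the 66 and 16.7% of the table. GCCATNTT (the core bound by YY1) was present in 19.7% and 6.96%, TGACGTCA (the CREB element) in 7.58% and 2.03%, and the TATA box letters TATAAA in 10.6% and 15.7%. A match to these letters is a description of the window and not a site shown to be used.

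The share of mRNA given to ribosomal protein genes was highest in spermatogonia and lower in each later germ cell class of both libraries. Their UMIs made up 9.97% of all UMIs in KO spermatogonia and 10.03% in WT spermatogonia. In early spermatocytes (the cells that enter meiosis) the share was 6.78% in KO and 5.66% in WT, and in late spermatocytes 3.01% in KO and 3.22% in WT. Round spermatids held 2.20% in KO and 2.26% in WT, and elongating spermatids 2.02% in KO and 2.04% in WT. From spermatogonia to elongating spermatids the share thus went down 4.95-fold within the KO library and 4.91-fold within the WT library. The last step depended on the total that the share is taken over. Protamine and transition protein mRNAs of 4 genes, which package sperm DNA, made up 21.2% of UMIs in KO and 19.0% in WT elongating spermatids. With these and the mitochondrially encoded genes left out of the total, elongating spermatids held 2.57% in KO and 2.53% in WT, above the round spermatid values of 2.28% in KO and 2.32% in WT.

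**Figure D1:**
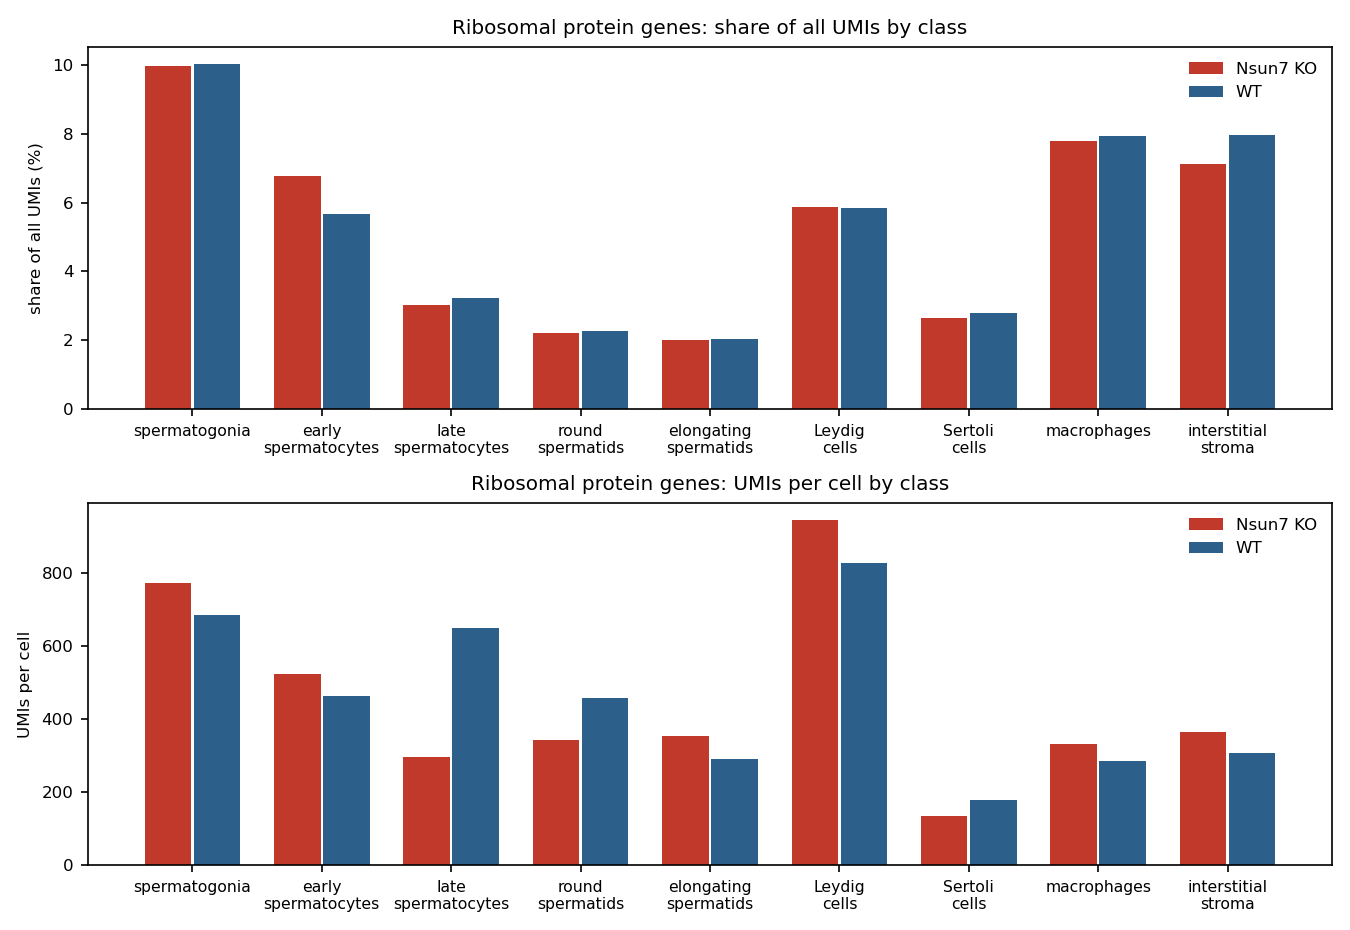
The upper bars give the share of all UMIs (percent) that fell on the 86 ribosomal protein genes in each class, and the lower bars their UMIs per cell, with KO in red and WT in blue. The share is 9.97% in KO and 10.03% in WT spermatogonia and 2.02% in KO and 2.04% in WT elongating spermatids, while UMIs per cell of late spermatocytes are 295 in KO and 651 in WT.

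A lower share was not always a lower number of ribosomal protein mRNAs per cell. KO spermatogonia held 774 such UMIs per cell and WT spermatogonia 685. KO late spermatocytes held 295 per cell, whereas WT late spermatocytes held 651, which is 0.951 of the WT spermatogonial value. Round spermatids had 342 per cell in KO and 457 in WT, and elongating spermatids 354 in KO and 290 in WT. Depth differed between the libraries in the same classes: the median total per cell was 3980.5 UMIs in KO and 11645 in WT late spermatocytes, 8412.5 in KO and 13540 in WT round spermatids, and 15098 in KO and 11361.5 in WT elongating spermatids. Late spermatocyte cluster 6, with medians of 1828 UMIs in KO and 1678.5 in WT, supplied 598 of 1266 KO cells and 846 of 3580 WT cells, and the part of this mix in the per-cell values was not tested. The shares within each late spermatocyte cluster lay between 2.72% and 3.52% in KO and between 2.78% and 3.91% in WT. The lowest were those of cluster 3, with 389 KO and 1175 WT cells, whose name is less certain. Its second-best class by markers was round spermatids. Its leading genes Iqca and Foxj1 also led clusters named round spermatids at a clustering resolution of 2.

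Shares in somatic cells of the testis differed by class. Leydig cells, which make testosterone, had 5.89% in KO and 5.84% in WT. Macrophages had 7.79% in KO and 7.95% in WT, with medians over single cells of 13.3% in KO and 11.1% in WT. The summed macrophage value moved with the clustering, to 14.2% in KO and 14.6% in WT when ribosomal protein genes were allowed to shape the clusters. Summed Leydig gene levels in macrophages were 19.5% of the library-wide level in KO and 35.6% in WT, above those of every other class apart from Leydig cells, and their part in the macrophage share was not tested. Interstitial stroma had 7.13% in KO and 7.97% in WT, with Leydig genes at 19.3% in KO and 21.1% in WT of their library-wide level. The 4 protamine and transition protein genes made up 10.8% of UMIs in KO and 6.19% in WT macrophages. They made up 7.95% in KO and 5.23% in WT stroma, and 7.32% in KO and 2.51% in WT Sertoli-class cells. The part of this spermatid RNA in the somatic shares was not tested. The Sertoli class had 2.64% in KO and 2.81% in WT, and its high-count cluster 28 had 2.35% in KO (19 cells) and 2.57% in WT (114 cells). Endothelial cells had 9.42% in KO and 10.6% in WT, and peritubular myoid cells 5.62% in KO and 4.89% in WT, on 5 and 13 KO cells against 52 and 33 WT cells.

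Along the germ line the set split into a large group that was lower after spermatogonia and a few genes that were not. Levels were compared within each library as log2 ratios of CPM over spermatogonia with 5 CPM added to both, for genes at 50 CPM or more in both libraries in either class. Of the 86 genes 84 passed this minimum, and Rpl3l and Rps27rt did not. In late spermatocytes 65 of the 84 were at least 2 times lower than spermatogonia in both libraries, where 35.6% of the 5630 genes measured in that comparison were. Only Rpl10l and Rpl39l were at least 2 times higher in both, where 30.9% of all measured genes were. The median log2 ratio of the 84 was -1.86 in KO and -1.77 in WT, beside -0.19 in KO and -0.24 in WT over all measured genes. A gene that passed the minimum through spermatogonia alone had to be lower later on, which applied to 7 of the 84. Among the 77 that passed in both classes, 59 were at least 2 times lower. The backgrounds here and in the next paragraph cover genes that passed in either class. They are therefore not matched to the members that passed in both, for which no all-gene share is given.

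The earlier and later classes bracketed this step. In early spermatocytes 9 of the 84 were at least 2 times lower in both libraries (background 5.52%) and 0 were higher (background 5.67%), with medians of -0.54 in KO and -0.73 in WT. This count depended on how the early class was drawn: it was 35 at a clustering resolution of 2 and 43 with the ribosomal protein genes among the clustering genes. In round spermatids 78 were lower (background 40.3%) and 2 higher (background 35.4%), with medians of -2.33 in KO and -2.31 in WT. Of these 84, 10 passed the minimum through spermatogonia alone, and among the 74 that passed in both classes 68 were lower. In elongating spermatids 78 were lower (background 64.8%) and 0 higher (background 24.3%), with medians of -2.67 in KO and -2.68 in WT, beside -2.83 in KO and -2.55 in WT over all measured genes. Here 24 of the 84 passed through spermatogonia alone and so had to be lower, and among the 60 that passed in both classes 54 were lower. The members' medians were below those of all measured genes in late spermatocytes and round spermatids (all genes -0.19 in KO and -0.19 in WT there), and close to them in elongating spermatids.

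**Figure D2:**
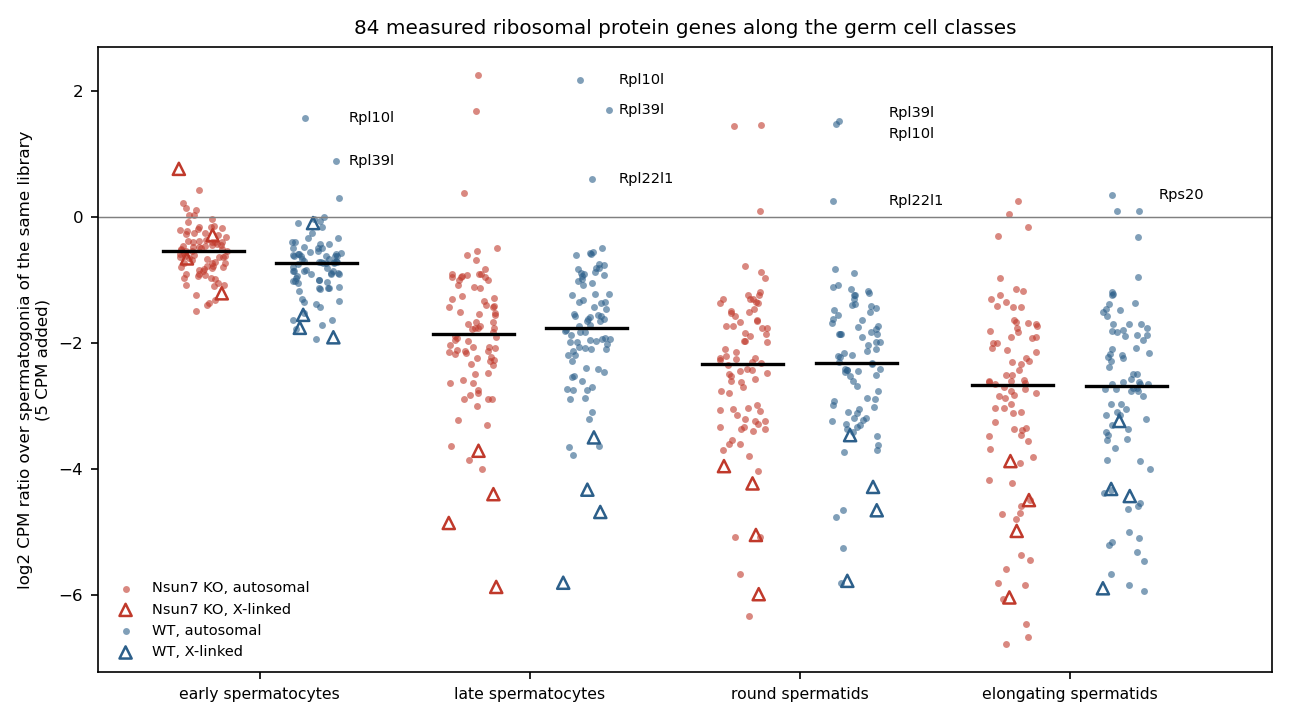
Each point is 1 of 84 measured ribosomal protein genes, placed by its log2 CPM ratio over spermatogonia of the same library (5 CPM added), with KO (red) left of WT (blue) in each class, triangles for the 4 X-linked genes and black lines for medians. Medians lie at -1.86 in KO and -1.77 in WT late spermatocytes, the 4 X-linked genes lie between -5.88 and -3.50 there, and Rpl10l and Rpl39l lie at 1.69 or more.

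Counted as UMIs per cell instead of CPM, the members' counts parted between the libraries. No share over all genes is given on this scale, on which depth per cell moves every gene, so these counts are not particular to the set. In KO late spermatocytes 60 of the 84 genes were at least 2 times lower per cell than in KO spermatogonia, against 16 of 84 in WT late spermatocytes over WT spermatogonia. The median log2 ratio per cell was -1.55 in KO and -0.21 in WT, and 3 genes in KO and 32 in WT were above the spermatogonial value. In round spermatids 52 genes in KO and 32 in WT were at least 2 times lower per cell, and in elongating spermatids 55 in KO and 59 in WT. The number at least 2 times lower in both libraries was 16 in late spermatocytes and 32 in round spermatids on this scale. Depth differed in these classes as given above, and its part in the per-cell values was not tested.

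The 4 X-linked genes were among the lowest of the set in late spermatocytes. Rpl10, a large subunit protein, was at 154 CPM in KO and 168 CPM in WT spermatogonia, and at 2.50 CPM in KO and 3.60 CPM in WT late spermatocytes. Rpl39, a small protein of the exit tunnel, was at 288 CPM in KO and 251 CPM in WT spermatogonia, and at 5.08 CPM in KO and 4.94 CPM in WT late spermatocytes. Rpl36a, a large subunit protein, was at 498 CPM in KO and 560 CPM in WT spermatogonia, and at 3.55 CPM in KO and 5.06 CPM in WT late spermatocytes. Rps4x, a small subunit protein, was at 102 CPM in KO and 86.8 CPM in WT spermatogonia, and at 3.15 CPM in KO and 3.12 CPM in WT late spermatocytes. All 4 were at least 2 times lower in both libraries, with a median log2 ratio of -4.63 in KO and -4.51 in WT, beside -1.77 in KO and -1.68 in WT for the 80 autosomal members. Of these 80, 2 in KO and 3 in WT were lower than the least changed X-linked gene, namely Rpl14 and Rpl10a in KO and Rpl14, Rpl22 and Rpl10a in WT. In elongating spermatids this number was 17 in KO and 24 in WT.

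What remained of the X-linked genes was set beside what germ cell classes held of Leydig genes, taken as a measure of free RNA. In the last 3 germ cell classes the 4 genes stood at 4.70% to 11.1% of their level over all KO barcodes and at 6.75% to 12.3% over all WT barcodes. The summed level of 6 Leydig genes, which germ cells do not use, stood at 5.33% to 6.07% of its library-wide level in those KO classes and at 6.55% to 7.02% in those WT classes. The part of free RNA in the remaining X-linked counts was not tested gene by gene. With an estimate of free RNA subtracted, the paralogue shares below went up to 99.9% for Rpl10l in KO and 99.7% in WT late spermatocytes, and to 99.8% for Rpl39l in KO and 99.9% in WT late spermatocytes.

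The autosomal paralogues made up nearly all counts of their pairs from late spermatocytes on. Shares are given as UMIs of the paralogue over those of paralogue and parent, and are read across classes and not as protein, since capture can differ between 2 genes. Rpl10l made up 38.3% of the Rpl10l and Rpl10 UMIs in KO spermatogonia (interval 35.2 to 41.5) and 37.9% in WT spermatogonia (35.9 to 39.9). It made up 51.1% in KO and 85.4% in WT early spermatocytes. In late spermatocytes the share was 99.5% in KO (99.3 to 99.6) and 99.3% in WT (99.2 to 99.3). Round spermatids had 98.8% in KO and 98.7% in WT, and elongating spermatids 93.1% in KO and 92.4% in WT. Leydig cells had 1.08% in KO and 4.55% in WT, macrophages 5.47% in KO and 16.9% in WT, and stroma 4.71% in KO and 5.53% in WT. The Sertoli class had 77.1% in KO and 71.8% in WT, and its cluster 11, which carried Tnp1, 82.5% in KO and 87.9% in WT, against 30.2% in KO and 38.02% in WT in cluster 28. The part of germ cell RNA in the Sertoli, macrophage and stroma values was not tested.

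Rpl10l itself peaked in late spermatocytes of both libraries. It was at 95.4, 131, 474, 273 and 27.3 CPM in KO cells from spermatogonia through early and late spermatocytes and round spermatids to elongating spermatids. The same classes of WT cells had 102.5, 317, 482, 295 and 36.9 CPM. Per cell, KO late spermatocytes held 4.64 Rpl10l UMIs and WT late spermatocytes 9.76, against 0.741 in KO and 0.700 in WT spermatogonia. With every cell thinned to 1000 UMIs, a Rpl10l UMI was found in 34.8% of KO and 36.9% of WT late spermatocytes, and in 0.278% of KO and 2.39% of WT Leydig cells, which serve as a background for free RNA. Without thinning these shares were 74.4% of KO and 86.1% of WT late spermatocytes (median depths of 3980.5 UMIs in KO and 11645 in WT) and 9.17% of KO and 20% of WT Leydig cells (14100 UMIs in KO and 10473 in WT). The order between late spermatocytes and Leydig cells thus held at equal depth in both libraries. Thinned shares were also 2.98% of KO and 4.19% of WT macrophages, and 1.82% of KO and 2.57% of WT stroma cells. The Sertoli class had 7.28% in KO and 11.3% in WT, and elongating spermatids 2.60% in KO and 3.46% in WT.

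Rpl39l followed a like course at its own levels. It was at 335, 302, 1095, 927 and 347 CPM in the 5 KO classes in the same order, and at 330, 617, 1087, 965 and 355 CPM in the WT classes. Its share of the Rpl39l and Rpl39 UMIs was 53.8% in KO and 56.8% in WT spermatogonia, 37.9% in KO and 72.4% in WT early spermatocytes, and 99.5% in both KO and WT late spermatocytes. The share stayed at 99.6% in KO and 99.5% in WT round spermatids and at 98.8% in KO and 97.8% in WT elongating spermatids. At 1000 UMIs per cell, 63.3% of KO and 63.8% of WT late spermatocytes had a Rpl39l UMI, and 5.56% of KO and 5.97% of WT Leydig cells. Such a UMI was found in 13.7% of KO and 18.1% of WT macrophages and in 9.09% of KO and 10% of WT stroma cells. It was found in 25.2% of KO and 26.5% of WT Sertoli-class cells and in 29.7% of KO and 28.2% of WT elongating spermatids. Spermatogonia were not uniform: in cluster 26 the share of the pair was 80.3% in KO and 83.5% in WT, and in the larger cluster 7 it was 40.6% in KO and 48.6% in WT.

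Rpl36al was less reduced than its parent. It was at 264 CPM in KO and 294 CPM in WT spermatogonia and at 186 CPM in KO and 208 CPM in WT late spermatocytes, less than 2 times lower in each library. It was at 132 CPM in KO and 137 CPM in WT round spermatids and at 49.8 CPM in KO and 47.9 CPM in WT elongating spermatids, so it too was lower in the later classes. Its share of the Rpl36al and Rpl36a UMIs went with the parent, at 34.7% in KO and 34.5% in WT spermatogonia, 33.4% in KO and 58.9% in WT early spermatocytes, and 98.1% in KO and 97.6% in WT late spermatocytes. The share was 97.9% in KO and 96.3% in WT round spermatids and 95.01% in KO and 91.5% in WT elongating spermatids. In Leydig cells it was 45.9% in KO and 44.9% in WT, so this paralogue was not limited to germ cells.

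**Figure D3:**
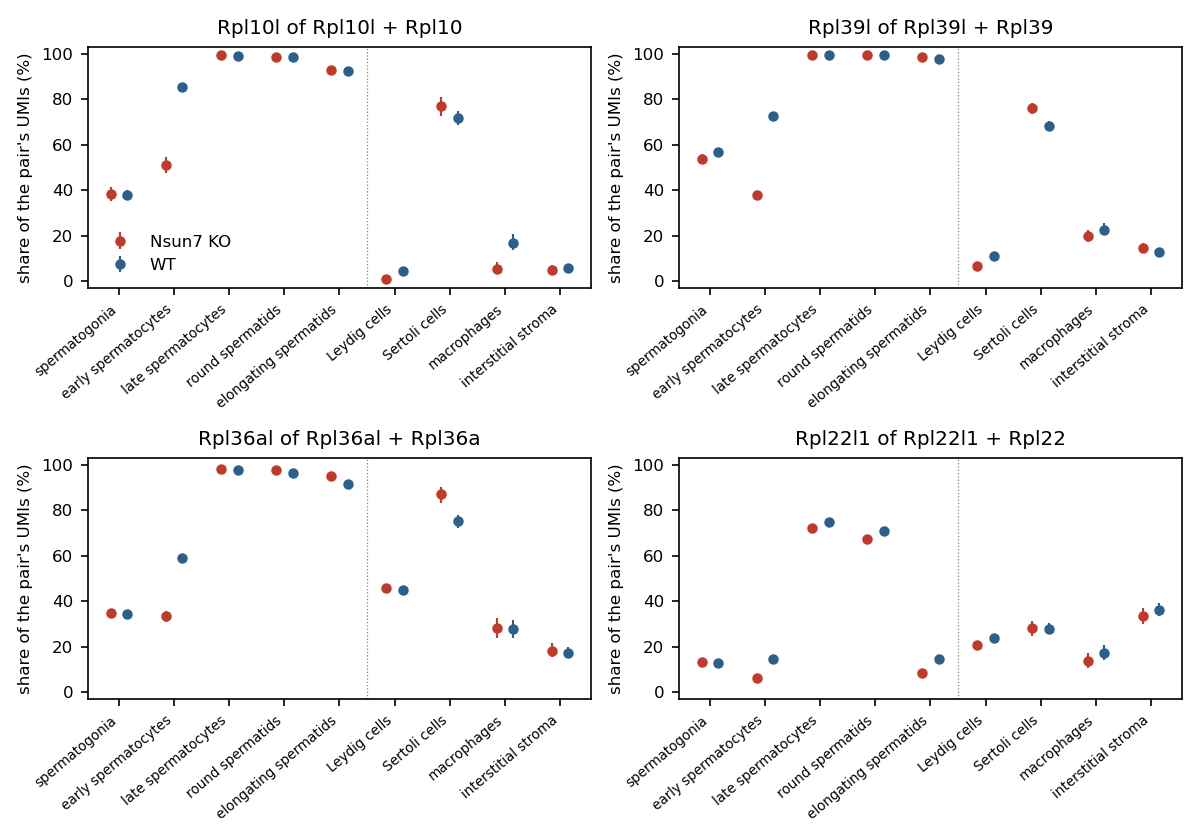
Each panel gives a paralogue's share (percent) of the UMIs of its pair by class, with KO (red) left of WT (blue) and bars for exact 95% binomial intervals. The Rpl10l, Rpl39l and Rpl36al shares are 91.5% or more from late spermatocytes on in both libraries, while the Rpl22l1 share is 72.2% in KO and 74.8% in WT late spermatocytes and returns to 8.34% in KO and 14.6% in WT elongating spermatids.

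The Rpl22 pair, with both genes on autosomes, exchanged for a shorter time. Rpl22, an RNA-binding large subunit protein, was at 1196 CPM in KO and 1211 CPM in WT spermatogonia and at 91.3 CPM in KO and 92.2 CPM in WT late spermatocytes. Rpl22l1 was at 181 CPM in KO and 178 CPM in WT spermatogonia and at 238 CPM in KO and 274 CPM in WT late spermatocytes. Its share was 13.1% in KO and 12.8% in WT spermatogonia, 72.2% in KO and 74.8% in WT late spermatocytes, and 67.3% in KO and 71.0% in WT round spermatids. In elongating spermatids Rpl22l1 was at 9.50 CPM in KO and 17.2 CPM in WT while Rpl22 remained at 104 CPM in KO and 101 CPM in WT, and the share was 8.34% in KO and 14.6% in WT.

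Other copies did not show this exchange. Rps27l, a copy of Rps27 known as a p53 target in human cells, made up 38.5% of its pair in KO and 40.5% in WT spermatogonia, 23.6% in KO and 22.6% in WT late spermatocytes, and 1.93% in KO and 4.03% in WT elongating spermatids. Rpl7l1 made up 16.1% of the Rpl7l1 and Rpl7 UMIs in both KO and WT spermatogonia and 1.48% in KO and 3.50% in WT elongating spermatids. Rpl3l, known from striated muscle, reached at most 7.63 CPM in KO and 10.7 CPM in WT among the germ cell classes, and 0 UMIs were found in KO round spermatids, which allows a share of its pair of up to 0.410%. Rps27rt, a copy with the same coding length as Rps27 (252 bases), stayed between 2.27% and 2.69% of its pair in KO and between 2.71% and 3.25% in WT germ cell classes. Since a copy this close to its parent can share reads with it, the Rps27rt values are uncertain. Rps4l, the autosomal relative of Rps4x, was not among the symbols that the naming rule gathered from the matrices, and so was not analysed here.

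Among the remaining genes, the levels in elongating spermatids spread over a wide range. Rps20, a protein of the small subunit head, was at 1148 CPM in KO and 1059 CPM in WT spermatogonia and at 1369 CPM in KO and 1352 CPM in WT elongating spermatids. Rpl41, the shortest ribosomal protein, was at 1999 CPM in KO and 2052 CPM in WT spermatogonia and at 1800 CPM in KO and 2193 CPM in WT elongating spermatids. Rps20 and Rpl41, with Rpl39l, were the 3 members with the highest ratios over spermatogonia. Per cell, Rpl41 was at 31.6 UMIs in KO and 31.2 in WT elongating spermatids, against 15.5 in KO and 14.0 in WT spermatogonia.

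By the log2 ratio over spermatogonia, averaged over the libraries, the lowest members of elongating spermatids were Rpl5, Rpl14 and Rpl36a. In KO alone Rps27a (-6.46) was below Rpl36a (-6.04). Rpl5, which carries the 5S RNA into the large subunit, was at 1500 CPM in KO and 1340 CPM in WT spermatogonia, at 111 CPM in KO and 121 CPM in WT round spermatids, and at 8.65 CPM in KO and 18.5 CPM in WT elongating spermatids. Rpl14, a large subunit protein, was lower one class sooner, at 72.8 CPM in KO and 87.3 CPM in WT late spermatocytes and at 10.4 CPM in KO and 17.5 CPM in WT round spermatids. In elongating spermatids Rpl5 stood at 7.27% of its level over all KO barcodes and 7.86% over all WT barcodes, and Rpl14 at 8.78% in KO and 10.7% in WT. These percentages were above the 5.33% in KO and 7.02% in WT of the Leydig genes there. The part of free RNA in them was not tested. In round spermatids Rpl10a, a large subunit protein, was among the 3 lowest, at 7.04 CPM in KO and 9.396 CPM in WT, against 608 CPM in KO and 546 CPM in WT spermatogonia. In early spermatocytes the lowest members included Rps2 and Rps3, small subunit proteins, with log2 ratios over spermatogonia of -1.49 and -1.37 in KO and of -1.93 and -1.63 in WT.

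The stalk genes differed among themselves. The stalk is the flexible arm of the large subunit that binds elongation factors, built on Rplp0 with copies of Rplp1 and Rplp2. Rplp0 was at 1687 CPM in KO and 1626 CPM in WT spermatogonia, 900 CPM in KO and 862 CPM in WT late spermatocytes, and 860 CPM in KO and 692 CPM in WT elongating spermatids. Rplp1 was at 2217 CPM in KO and 2315 CPM in WT spermatogonia, 393 CPM in KO and 431 CPM in WT late spermatocytes, and 409 CPM in KO and 505 CPM in WT elongating spermatids. Rplp2 was at 2286 CPM in KO and 2275 CPM in WT spermatogonia, 305 CPM in KO and 306 CPM in WT late spermatocytes, and 214 CPM in KO and 175 CPM in WT elongating spermatids. Rpsa, a small subunit protein also known as the laminin receptor, was at 983 CPM in KO and 1053 CPM in WT spermatogonia and at 121 CPM in KO and 131 CPM in WT elongating spermatids.

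Fau and Rack1, outside the naming rule, and the member Rps27a went different ways. Fau was at 950 CPM in KO and 885 CPM in WT spermatogonia and at 567 CPM in KO and 628 CPM in WT elongating spermatids. Rps27a, a member that encodes a fusion with ubiquitin, was at 1275 CPM in KO and 1448 CPM in WT spermatogonia and at 9.50 CPM in KO and 27.8 CPM in WT elongating spermatids. These last values were 8.40% of its level over all KO barcodes and 9.59% of that over all WT barcodes. Its level over all barcodes was 113 CPM in KO and 290 CPM in WT, and the part of free RNA was not tested. Rack1 was at 868 CPM in KO and 848 CPM in WT spermatogonia and at 7.43 CPM in KO and 14.9 CPM in WT elongating spermatids.

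Other lists of the translation machinery gave a frame for the late spermatocyte values. For the counts here and in the next paragraph the background over all measured genes was 35.6% lower and 30.9% higher. The counts of initiation and elongation factors that were lower lay near that background. Of 24 measured TOP mRNA genes that are not ribosomal proteins by name, 12 were at least 2 times lower than spermatogonia in both libraries and 3 higher, with medians of -1.01 in KO and -0.95 in WT. Pabpc1, the cytoplasmic poly(A)-binding protein, was the highest of them at log2 ratios of 2.47 in KO and 2.20 in WT, and Hnrnpa1, a splicing factor, the lowest at -3.17 in KO and -2.91 in WT. Of 10 elongation factors 4 were lower and 0 higher, from Hbs1l, a ribosome rescue factor (0.64 in KO and 0.41 in WT), to Eef1e1, a factor of the tRNA synthetase complex (-4.09 in KO and -3.95 in WT). Of 39 initiation factors 14 were lower and 1 higher, from Eif4g3, a scaffold (1.56 in KO and 1.32 in WT), to the X-linked Eif1ax (-3.83 in KO and -4.34 in WT).

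Ribosome biogenesis genes came closest to the set by their median. Of 65 measured, 38 were lower and 5 higher, with medians of -1.49 in KO and -1.45 in WT, from Lyar (3.81 in KO and 3.31 in WT) to nucleolin, Ncl (-5.63 in KO and -5.74 in WT). Of 64 mitochondrial ribosomal protein genes 29 were lower and 4 higher (medians of -0.86 in KO and -0.89 in WT), from Mrpl39 (2.23 in KO and 2.15 in WT) to Mrps24 (-3.99 in KO and -3.96 in WT). Of 32 proteasome subunits 14 were lower and 3 higher (medians of -0.76 in KO and -0.88 in WT), from Psma8, the testis subunit of the meiotic proteasome (1.78 in KO and 1.68 in WT), to its relative Psma7 (-4.54 in KO and -4.39 in WT). Large and small subunit members of the set had medians of -1.75 and -1.99 in KO and of -1.59 and -1.90 in WT.

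Between genotypes, the set was close to level in most classes. Ratios are KO over WT with 5 CPM added, for genes whose mean reached 50 CPM, and a gene is counted at 1.5 times or more. In spermatogonia 0 of 84 members were past this size, where 1.5% of the 4322 measured genes were higher and 0.694% lower. The members' median log2 ratio was -0.01, and the extremes were Rps6, at 1380 CPM in KO and 1180 CPM in WT (0.23), and Rpl38, at 858 CPM in KO and 989 CPM in WT (-0.20). In late spermatocytes 0 of 77 were past it (background 2.84% higher and 0.0265% lower). Their median was -0.10, with 70 of 77 below 0, from Rps6 at 405 CPM in KO and 372 CPM in WT (0.12) to Rps27a at 286 CPM in KO and 371 CPM in WT (-0.37). In round spermatids 0 of 74 were past it (background 0.701% higher and 0.0809% lower), with a median of -0.05, from Rpl36 at 482 CPM in KO and 437 CPM in WT (0.14) to Rpl4 at 147 CPM in KO and 186 CPM in WT (-0.33).

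Elongating spermatids had 1 member past the size, Rpl4, a large subunit protein, at 39.0 CPM in KO and 63.5 CPM in WT (fold 0.614, interval 0.589 to 0.640). Of the 65 measured members 1 was lower (background 1.28%) and 0 higher (background 0%). Rpl4 was not past the size with equal weights for the clusters of the class in both libraries, nor with free RNA subtracted. The highest members were Rplp0, at 860 CPM in KO and 692 CPM in WT, Rplp2 and Rpl37a, with log2 ratios of 0.31, 0.28 and 0.27. The lowest after Rpl4 were Rpl35 and Rplp1, at -0.32 and -0.30. The cells of this class lay in clusters that differed between the libraries, with 2093 KO and 36 WT cells in cluster 0 and 54 KO and 1422 WT cells in cluster 5. With scaling by trimmed means of M values (TMM), which shifts all ratios of a class by 1 constant, the members' median of -0.04 became 0.29. TMM scaling also turned the sign of the small medians of spermatogonia (0.05) and round spermatids (0.05), while that of late spermatocytes stayed below 0 (-0.08).

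Early spermatocytes were the exception, with 10 of 83 members higher in KO (background 17%) and 3 lower (background 18.4%). The 3 highest were the X-linked Rpl10 at 125 CPM in KO and 54.1 CPM in WT (2.31-fold, interval 2.03 to 2.64), Rpl36a at 314 CPM in KO and 145 CPM in WT, and Rpl39 at 494 CPM in KO and 235 CPM in WT. The 3 lowest were Rpl10l at 131 CPM in KO and 317 CPM in WT (0.412-fold, 0.372 to 0.456), Rpl39l at 302 CPM in KO and 617 CPM in WT, and Rpl22l1 at 65.3 CPM in KO and 110 CPM in WT. These 6 members are X-linked parents on the high side and paralogues on the low side. The share of members past the size was below that of all measured genes in each direction.

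The early class joined 2 clusters that the libraries filled unequally. Cluster 9 held 359 KO and 758 WT cells and cluster 23 held 65 KO and 432 WT cells. In cluster 9 the Rpl10l share of its pair was 32.1% in KO and 39.98% in WT, and the Rpl39l share 27.5% in KO and 30.7% in WT. In cluster 23 the Rpl10l share was 96.0% in KO and 98.4% in WT, and the Rpl39l share 91.5% in KO and 97.6% in WT. Within cluster 9, 0 of 83 measured members were past 1.5 times (background 0.620% higher and 1.26% lower). Within cluster 23, 1 of 80 was (Rps12, at a log2 ratio of 0.65), beside a background of 11.3% higher and 14.7% lower. With the clusters given equal weights in both libraries, 0 members of the class were past the size and the median log2 ratio was 0.11, in place of 0.24.

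**Figure D4:**
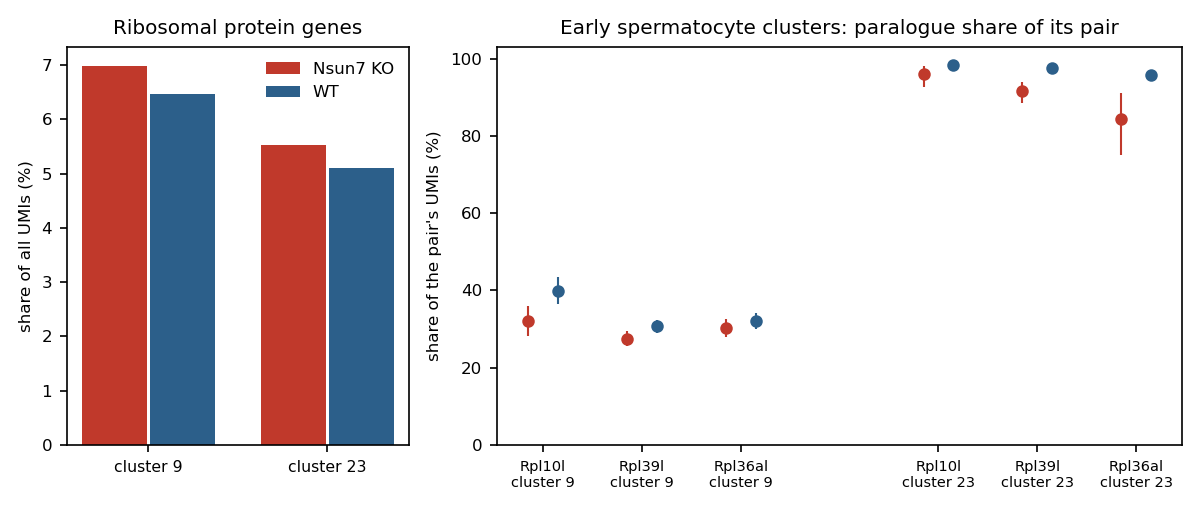
The left panel gives the share of all UMIs (percent) on ribosomal protein genes in the 2 early spermatocyte clusters, and the right panel the paralogue shares of 3 pairs (percent, bars for exact 95% binomial intervals), with KO in red and WT in blue. The Rpl10l share is 32.1% in KO and 39.98% in WT in cluster 9, and 96.0% in KO and 98.4% in WT in cluster 23.

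In somatic classes few members were past the size, and their medians were 0.02 in Leydig cells, -0.17 in the Sertoli class and -0.06 in macrophages, against 0.12, 0.16 and 0.29 under TMM scaling. In Leydig cells 1 of 81 was lower (background 2.44%) and 0 higher (background 0.368%). This was Rpl39l at 51.7 CPM in KO and 88.4 CPM in WT, and over all barcodes Rpl39l was at 416.5 CPM in KO and 682 CPM in WT. In macrophages 1 of 82 was lower (background 26.9%) and 0 higher (background 12.6%). This was Rpl10l at 30.8 CPM in KO and 104 CPM in WT (0.296-fold, interval 0.176 to 0.480), and over all barcodes it was at 78.9 CPM in KO and 242 CPM in WT. Both genes were thus germ line paralogues whose library-wide level differed in the same direction, and the part of free germ cell RNA was not tested. In the Sertoli class 1 of 80 was lower (background 21%) and 0 higher (background 14%), namely Rps27a at 240 CPM in KO and 384 CPM in WT. In cluster 11 alone 0 of 80 were past the size (background 7.28% higher and 12.3% lower). In interstitial stroma 0 of 81 were past it (background 6.82% higher and 5.99% lower), with a median of -0.17 and Rplp0 as the highest, at 1462 CPM in KO and 1238 CPM in WT. The stroma median also depended on the processing, and lay between -0.17 and -0.02 over the alternative runs.

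**Figure D5:**
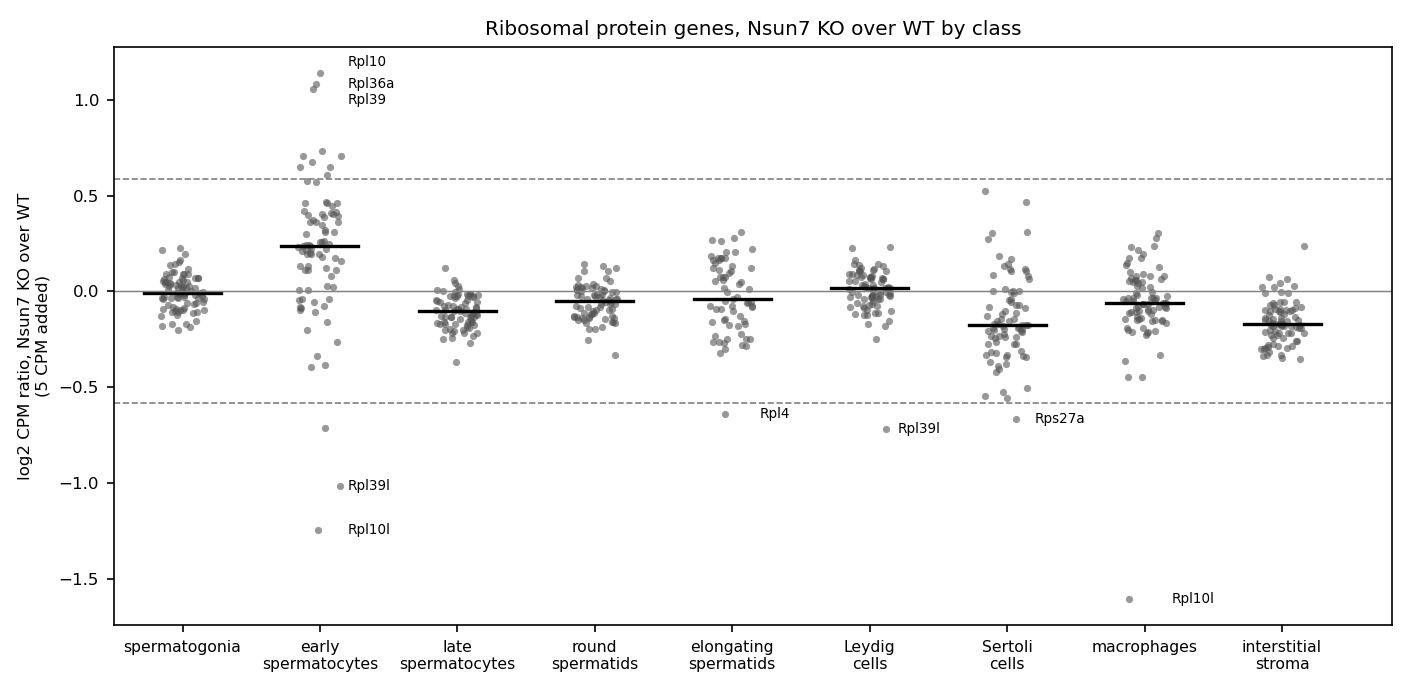
Each point is a ribosomal protein gene whose mean reached 50 CPM, placed by its log2 CPM ratio of KO over WT in each class, with black lines for medians and dashed lines at 1.5 times. Points leave the dashed band mainly in early spermatocytes (10 above and 3 below), and single genes do so in elongating spermatids, Leydig cells, the Sertoli class and macrophages.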

How the data were processed

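Both matrices hold UMI counts per gene and barcode as deposited by the authors, made with PISA 0.12 per the file headers and on GRCm38 per the submitters' processing notes. The aligner settings, cell calling and treatment of reads that fit several genes are not stated in any source used here. Barcodes under 200 genes or over 20% mitochondrial counts were left out. The kept cells were log-normalised, reduced to 40 components over 3000 variable genes per library and clustered with the Leiden method (20 neighbours, resolution 1; scanpy 1.11.5, igraph 0.11.9, Python 3.11.15). Members and Nsun7 were left out of the clustering. Called doublets (622 KO and 600 WT cells, 4.48% and 3.96%) were kept. Clusters were named from fixed markers, and 7 of 34 stayed unnamed.

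Counts were summed per class and library and given as CPM with exact Poisson intervals. Shares have exact binomial (Clopper-Pearson) intervals, and folds exact conditional ones (scipy 1.17.1). Classes with at least 50 cells per library were compared. Log2 ratios add 5 CPM to both sides, and genes needed 50 CPM. Stage ratios were called at 2 times and KO over WT at 1.5 times, with no test. The scripts were tested on simulated data. The members and lists were chosen with earlier results of these data known.

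Named genes were the paralogues and their parents, the 3 highest and 3 lowest members per comparison, Rplp0, Rplp1, Rplp2, Rpsa, Fau and Rack1, and the highest and lowest gene of each other list. Some named genes are not reported here. Rps12 in cluster 23 was named after its value was seen.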

Additional observations from a re-analysis of the deposited data

Results flagged for a closer look

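The barcodes removed by the cell filter form data outside the comparisons. There were 2968 such barcodes in the KO library and 1237 in the WT library, with median mitochondrial shares of 39.1% in KO and 29.6% in WT. Ribosomal protein genes made up 3.13% of their UMIs in KO and 2.97% in WT. They are given because these barcodes enter no comparison, and a value above 0 is no finding for genes this abundant. Rpl39l made up 44.5% of its pair's UMIs there in KO and 43.5% in WT, and Rpl10l 38.2% in KO and 43.2% in WT.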

How the results depend on the processing

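The order of shares along the germ line, the Rpl10l, Rpl39l and Rpl36al shares of late spermatocytes (96.9% or more in each library), and the absence of members past 1.5 times in spermatogonia and late spermatocytes held under every alternative run, except that 6 of 8 steps of the share, in place of 8, went down when mitochondrial, protamine and transition protein genes left the total. The count of early spermatocyte members past 1.5 times, 13, became 0 at resolution 2, 1 when members shaped the clusters, 0 at an equal cluster mix, 6 under TMM scaling and 5 at a rule of 2 times. For elongating spermatids the count of 1 became 0 with free RNA subtracted, 0 at an equal mix, 4 under TMM, 7 at a minimum of 10 CPM, 0 at 200 CPM and 0 at 2 times. In Leydig cells 1 became 0 under a stricter cell filter, 0 without doublets, 2 at 10 CPM, 0 at 200 CPM and 0 at 2 times. In the Sertoli class 1 became 2 under the stricter filter, 6 when members shaped the clusters, 5 with free RNA subtracted, 0 at an equal mix, 5 under TMM, 2 at 10 CPM and 0 at 2 times. In macrophages 1 became 0 without doublets, 2 with free RNA subtracted, 4 under TMM, 3 at 10 CPM and 0 at 200 CPM. Stroma went to 1 with free RNA subtracted and 2 at 10 CPM, and round spermatids to 1 at 10 CPM. Early members at least 2 times lower than spermatogonia numbered 35 at resolution 2 and 43 when members shaped the clusters, in place of 9. On UMIs per cell, 16 late (in place of 65) and 32 round (in place of 78) were lower. The causes were not tested. No paired analysis was possible because each genotype has 1 library.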

Other observations

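In elongating spermatids other genes of the translation machinery parted from one another. Of 65 ribosome biogenesis genes 61 were at least 2 times lower than spermatogonia in both libraries, with medians of -3.96 in KO and -3.62 in WT, and Ncl was at 9.01 CPM in KO and 16.3 CPM in WT. Of 31 proteasome subunits 28 were lower and 1 higher, and Psma6, a subunit of the outer ring of the core, had log2 ratios of 1.73 in KO and 1.78 in WT. Of 62 mitochondrial ribosomal protein genes 53 were lower, from Mrpl54 (0.68 in KO and 0.44 in WT) to Mrps14 (-4.80 in KO and -4.23 in WT). The initiation factor Eif4e, which binds the mRNA cap, was at 1191 CPM in KO and 1311 CPM in WT, with ratios of 2.38 in KO and 2.69 in WT. The elongation factor Eef1d, which recharges eEF1A, was at 1369 CPM in KO and 1532 CPM in WT, with ratios of 1.47 in KO and 1.68 in WT. The share of all measured genes that were lower in this class was 64.8%.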
